A study of Mus musculus with 12 samples.

Results

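The effect of a TRAX knockdown on striatal microRNAs (miRNAs) in R6/2 mice was set against the effect of the same knockdown in wild-type (WT) mice. For each miRNA the quantity of interest is a difference of differences on the log2 scale, namely shTRAX minus control in R6/2, minus shTRAX minus control in WT. A positive value means that the shTRAX effect was higher in R6/2 than in WT. The contrast takes all 12 libraries of the series, 6 for the R6/2 effect and 6 for the WT effect, with 3 libraries in each of 4 groups. Small RNA was sequenced from striatum at 10.5 weeks of age, after bilateral injection of an adeno-associated virus (AAV) into the striatum at 5 weeks.

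The R6/2 shTRAX group carried the R6/2 transgene and received AAV with a short hairpin RNA against TRAX. The R6/2 control group carried the same transgene and received AAV with a control hairpin. The WT shTRAX and WT control groups received the same pair of viruses without the transgene. All mice have the strain label B6CBAFI/J, and the R6/2 line (B6CBA-Tg(HDexon1)62Gpb/3J) was kept by mating to B6CBAFI/J females. All 4 groups therefore share surgery, virus and hairpin expression. The labels name TRIzol or miRNeasy for RNA extraction without saying which sample had which, and a QIAseq kit that adds molecular identifiers. Whether the 3 samples of a group are different animals is not stated, and a p-value here speaks only of the spread among the samples sequenced. Whole dissected striatum was sampled, so fewer cells of a type and less miRNA per cell cannot be told apart.

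R6/2 mice express exon 1 of human huntingtin with a long CAG repeat and serve as a model of Huntington's disease, in which striatal neurons are hit early. TRAX, the product of Tsnax, binds translin to form a nuclease that acts on RNA. This complex is known to clear passenger strands during loading of the silencing complex and to degrade some miRNA precursors. A miRNA guides the silencing complex to target transcripts mainly through its seed, the short stretch near its 5′ end, so that miRNAs with 1 seed share most targets. Many striatal miRNAs come from a few polycistronic loci, among them the imprinted Dlk1-Dio3 region and, in mouse, an intron of Sfmbt2 that holds the miR-466, miR-467 and miR-669 families.

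The comparison turns on a small number of miRNAs, whose sequences are given with capitals that mark the seed (bases 2 to 8). The sequences are RefSeq mature sequences on build GRCm38.p6, which were found for 44 of the 49 named miRNAs. The first set had a higher shTRAX effect in R6/2 than in WT in a fit that left out R6/2 shTRAX replicate 3 and WT shTRAX replicate 1, and miR-125b-5p is shown beside miR-125a-5p because it carries the same seed.
miR-125a-5p: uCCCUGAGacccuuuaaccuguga
miR-125b-5p: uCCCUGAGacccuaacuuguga
miR-125a-3p: aCAGGUGAgguucuugggagcc
miR-125b-1-3p: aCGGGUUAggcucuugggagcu
let-7b-5p: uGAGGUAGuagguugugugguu
let-7e-5p: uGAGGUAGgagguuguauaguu
miR-92a-3p: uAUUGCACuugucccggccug
miR-671-5p: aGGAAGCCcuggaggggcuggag
miR-1198-5p: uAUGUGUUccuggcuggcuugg
The second set had a lower shTRAX effect in R6/2 than in WT in that fit, except miR-154-3p, which is shown because its shTRAX and control values did not overlap in either genotype.
miR-376a-3p: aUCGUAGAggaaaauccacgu
miR-376b-3p: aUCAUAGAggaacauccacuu
miR-433-5p: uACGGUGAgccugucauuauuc
miR-539-5p: gGAGAAAUuauccuuggugugu
miR-154-3p: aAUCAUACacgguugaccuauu
miR-153-3p: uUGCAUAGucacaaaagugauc
miR-139-5p: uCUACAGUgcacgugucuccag
miR-29b-3p: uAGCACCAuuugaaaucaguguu
The GC content of the letters ran from 69.6% in miR-671-5p of the first set to 34.8% in miR-29b-3p of the second. The sets overlapped, with 40.9% in let-7e-5p of the first and 54.5% in miR-139-5p of the second.

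Libraries held 13849777 to 16907910 counts on mature miRNAs, and 1033 to 1106 miRNAs were detected in each. Neuron-enriched miRNAs summed to 243169 to 319810 CPM (counts scaled to library totals and by trimmed mean of M values, TMM), so the markers of neural tissue were abundant in every library. The level of Tsnax mRNA cannot be read from small RNA counts, and the knockdown was not checked. Pairs of replicates differed by more than counting error, since their chi-square divided by its degrees of freedom ran from 30.09 to 1912. R6/2 shTRAX replicate 3 stood apart, with a first principal component score of 24.5 against -5.54 to 0.382 in the other 11 libraries. Library weights estimated with limma were 0.05719 for that library, 0.2402 for WT shTRAX replicate 1 and 0.9648 to 2.553 for the other 10. Results are therefore given with all 12 libraries and without these 2.

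The question was whether shTRAX changes striatal miRNAs differently in R6/2 and in WT. Over all 12 libraries, 0 of 689 miRNAs tested passed an adjusted p of 0.05 (0.0%; edgeR quasi-likelihood test with Benjamini-Hochberg adjustment, smallest adjusted p = 0.455). Without adjustment, 61 miRNAs had a p under 0.05 (8.85%), 35 with a positive difference (5.08%) and 26 with a negative one (3.77%). DESeq2 called 2 miRNAs, miR-467a-5p and miR-467b-5p, both negative with an adjusted p of 0.0351, and limma with library weights called 2, with a smallest adjusted p of 0.0423. The median standard error of a difference was 0.37, and the 95% interval lay within 1 log2 unit of 0 for 254 miRNAs (36.9%). Without single libraries edgeR called 0 in each of the 12 fits. The 61 became 146 and 113 without R6/2 shTRAX replicates 1 and 2, and 95 without WT shTRAX replicate 1. They became 36, 30 and 38 without R6/2 control replicates 1, 2 and 3, 32 without WT shTRAX replicate 2, and 36 and 35 without WT control replicates 1 and 2.

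The shTRAX effects of the 2 genotypes, which share no library, showed little relation across miRNAs over 12 libraries, and a moderate one by Pearson r alone over 10. Over 12 libraries their Pearson r was 0.05 and their Spearman rho -0.18 across 689 miRNAs, and 278 had the same sign. The median absolute effect was 0.34 in R6/2 and 0.16 in WT. Without the 2 libraries the order turned round, with a median absolute effect of 0.16 in R6/2 and 0.23 in WT. There r was 0.39 and rho 0.10 across 696 miRNAs, and 341 had the same sign. miRNAs share libraries and are not independent replicates.

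**Figure D1:**
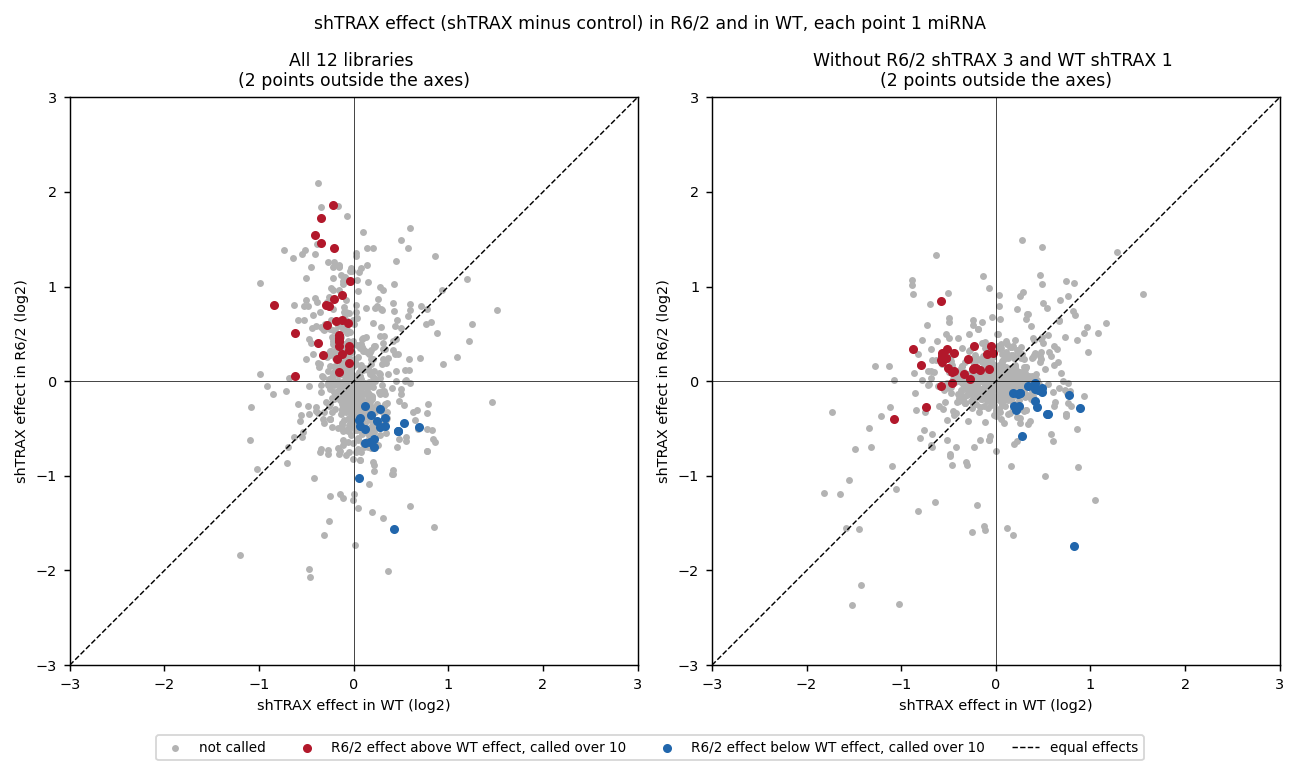
The shTRAX effect (shTRAX minus control, log2) in R6/2 on the vertical axis against that in WT on the horizontal axis, 1 point per miRNA, over all 12 libraries (left) and without R6/2 shTRAX 3 and WT shTRAX 1 (right). Red and blue points are the 30 miRNAs above and 21 below the line of equal effects that passed an adjusted p of 0.05 over 10 libraries. In the right panel most of them lie farther from 0 along the WT axis.

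Without R6/2 shTRAX replicate 3 and WT shTRAX replicate 1, 51 of 696 miRNAs passed an adjusted p of 0.05 (7.33%; edgeR), 30 with a higher effect in R6/2 than in WT (4.31%) and 21 with a lower one (3.02%). These 2 libraries were chosen from these data, so the 51 calls depend on that choice. The 30 higher differences were 0.20 to 1.43 on the log2 scale, with a median effect of 0.18 in R6/2 and -0.46 in WT. The 21 lower ones were 0.30 to 2.57 in size, with a median effect of -0.15 in R6/2 and 0.41 in WT. In 24 of the 30 and 16 of the 21 the WT effect was the larger in size. The effects had opposite signs in 26 of the 30 and in 21 of the 21.

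All 51 kept their sign over 12 libraries, which include the 10 that gave the calls, so this is no separate support. There 14 of the 30 and 6 of the 21 stood at an unadjusted p under 0.05. Over all 689 miRNAs the shares were 5.08% positive and 3.77% negative. The split of calls depended on scaling. Relative log expression size factors gave 41 calls (14 higher and 27 lower, and 35 shared with the 51), and DESeq2 gave 64, 27 higher and 37 lower. A minimum count of 50 gave 14 higher and 35 lower, no filter 18 and 19, and keeping every precursor row 14 and 50. An offset for GC content left 17 calls, 5 higher and 12 lower. A block for the replicate number ended all 51 calls (smallest edgeR adjusted p = 0.0729), as did the block with the GC offset (0.123). The labels do not say that these numbers pair the samples. No call was left without R6/2 shTRAX replicate 1 or 2, WT shTRAX replicate 2 or WT control replicate 2, while 24 were left without R6/2 control replicate 2 and 28 without WT control replicate 1. Leaving out a further shTRAX library leaves 1 library in that group, which is then assumed to vary like the others. All 51 kept their sign under each of the alternatives tried over 10 libraries, which use the same libraries. Called under each of the 8 alternatives in scaling, test, filter, precursor rows and GC offset were 13, namely miR-125a-5p, miR-1198-5p, miR-378a-3p and miR-383-5p with a higher effect in R6/2, and miR-33-5p, miR-139-5p, miR-153-3p, miR-337-3p, miR-376a-3p, miR-376a-5p, miR-433-5p, miR-467a-5p and miR-467b-5p with a lower one. The GC offset left miRNAs without a sequence unadjusted. Among the 13 these were miR-378a-3p, miR-383-5p, miR-467a-5p and miR-467b-5p, for which it was no test of GC content. None of the 13 passed with the replicate block.

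**Figure D2:**
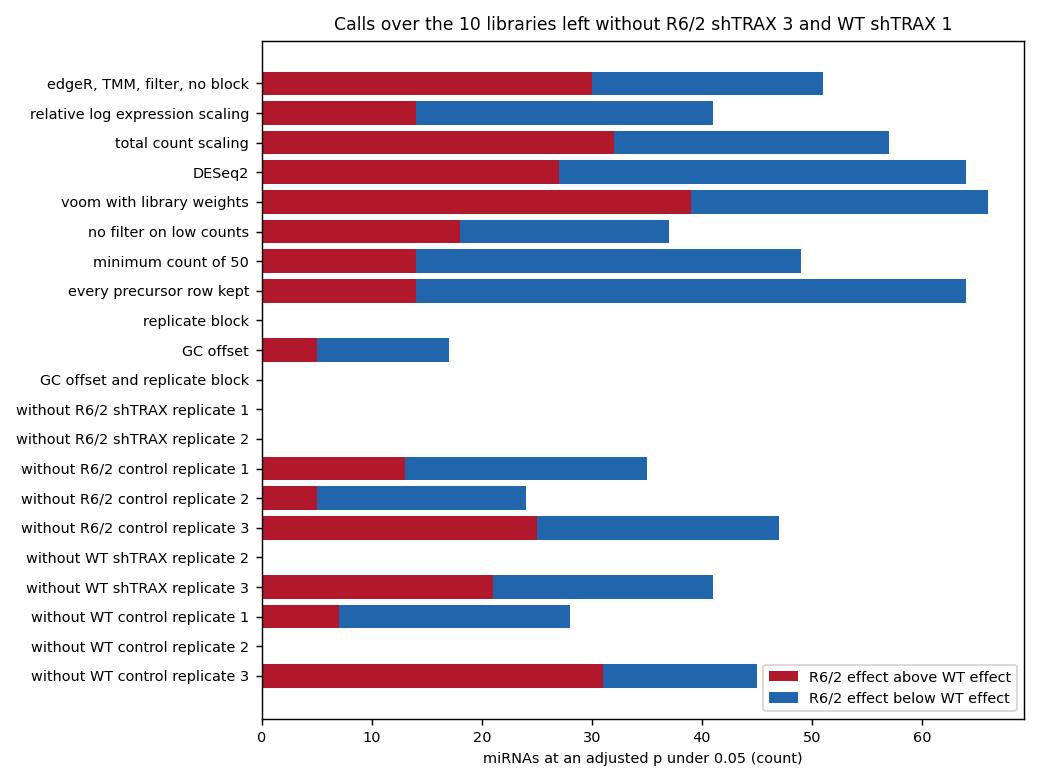
Number of miRNAs at an adjusted p under 0.05 for the difference of the shTRAX effect, R6/2 minus WT, over the 10 libraries left without R6/2 shTRAX 3 and WT shTRAX 1, under each setting. Red bars count a higher effect in R6/2 and blue bars a lower one. The upper bar holds 51 calls, the GC offset 17, and 6 settings hold 0.

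The miR-125 and miR-99/100 families, conserved families often encoded beside let-7, mostly had positive differences. Over 12 libraries 9 of 11 members were above 0 with a median difference of 0.54, beside 334 of 689 and a median of -0.02 over all miRNAs tested. At an unadjusted p under 0.05 stood 3 of 11, all positive, beside 35 of 689 positive (5.08%) over all. Over 10 libraries 10 of 11 were above 0 with a median of 0.39, beside 380 of 696 and 0.04 over all. Called higher were 6 of 11, beside 30 of 696 (4.31%) over all. The 6 were miR-125a-5p, miR-125a-3p, miR-125b-1-3p, miR-99a-5p, miR-99b-5p and miR-100-5p. They are not separate loci, since miR-125a-5p and miR-125a-3p come from 1 hairpin and miR-99b lies beside it. All 3 tested miRNAs with the seed ACCCGUA (miR-99a-5p, miR-99b-5p and miR-100-5p) were called. With the GC offset the family's median was 0.25 over 12 libraries and 0.26 over 10. Of the 6 calls only miR-125a-5p was also called with the GC offset over 10 libraries (edgeR adjusted p = 0.046). The others, with all 3 of the seed ACCCGUA among them, were not (edgeR adjusted p = 0.0517 to 0.139).

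miR-125a-5p, the mammalian relative of the worm's lin-4, is made from a hairpin in an exon of Spaca6 at chr17:17830812-17830879 (plus strand). It had 17301, 17231 and 47677 CPM in R6/2 shTRAX against 14986, 14237 and 14384 CPM in R6/2 control. In WT it had 12365, 12818 and 13646 CPM with shTRAX against 14234, 14605 and 13217 CPM with control. All 3 R6/2 shTRAX libraries lay above the R6/2 controls, replicate 3 far above, while the WT groups overlapped. The difference was 1.03 ± 0.45 (SE) over 12 libraries (edgeR adjusted p = 0.469) and 0.39 ± 0.07 over 10 (edgeR adjusted p = 0.0291).

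The opposite arm, miR-125a-3p, had 35.3, 37.5 and 78.9 CPM in R6/2 shTRAX against 28.8, 28.6 and 29.8 CPM in R6/2 control. With shTRAX in WT it had 19.4, 20.7 and 21.5 CPM, against 25.3, 24.9 and 23.5 CPM with control. The shTRAX libraries were thus all above their controls in R6/2 and all below them in WT. The difference was 1.06 ± 0.36 over 12 libraries (95% interval 0.25 to 1.86, edgeR adjusted p = 0.469) and 0.59 ± 0.12 over 10 (edgeR adjusted p = 0.0291). With the GC offset over 10 libraries it was 0.39 (edgeR adjusted p = 0.0578).

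miR-99b-5p lies beside miR-125a and belongs to a family known to repress mTOR in human cells. It had 1201, 1186 and 3340 CPM in R6/2 shTRAX against 1025, 1044 and 1065 CPM in R6/2 control, and 1108, 896 and 1065 CPM in WT shTRAX against 1243, 1194 and 1124 CPM in WT control. The groups did not overlap in either genotype, with shTRAX above control in R6/2 and below it in WT. Over 10 libraries the difference was 0.52 ± 0.11 (edgeR adjusted p = 0.0308), and with the GC offset 0.26 (edgeR adjusted p = 0.139). miR-125b-5p, which shares the seed of miR-125a-5p, had a difference of 0.14 over 10 libraries (edgeR adjusted p = 0.263).

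The let-7 family, miRNAs of differentiated cells that repress growth genes, was divided. Over 12 libraries 14 of 23 members were above 0, with a median of 0.16, and over 10 libraries 13 of 23, with a median of 0.04 that turned to -0.01 with relative log expression scaling. let-7b-5p, let-7c-5p and let-7e-5p were called higher over 10 libraries, which is 3 of 23 members beside 30 of 696 over all (4.31%), where 380 of 696 were above 0. None of the 3 was called with the GC offset over 10 libraries (edgeR adjusted p = 0.0571, 0.0925 and 0.067). let-7b-5p had 10542, 10773 and 19214 CPM in R6/2 shTRAX against 10208, 10076 and 9975 CPM in R6/2 control, and 8054, 7845 and 8125 CPM in WT shTRAX against 8915, 9125 and 8709 CPM in WT control. Neither genotype had overlap, with shTRAX above control in R6/2 and below it in WT. The difference was 0.58 over 12 libraries (edgeR adjusted p = 0.469) and 0.29 ± 0.06 over 10 (edgeR adjusted p = 0.0291).

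let-7e-5p, which lies in an intron of Spaca6 in the same cluster as miR-99b and miR-125a, had 6771, 6964 and 12549 CPM in R6/2 shTRAX against 5929, 5587 and 5731 CPM in R6/2 control. It had 4162, 4340 and 4754 CPM in WT shTRAX against 4739, 4726 and 4372 CPM in WT control. The R6/2 groups did not overlap and the WT groups did. Of the 10 tested miRNAs with the let-7 seed GAGGUAG, 8 were above 0 over 10 libraries. let-7f-5p, the most abundant of them, had a difference of 0.23 over 12 libraries (95% interval -0.10 to 0.56).

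**Figure D3:**
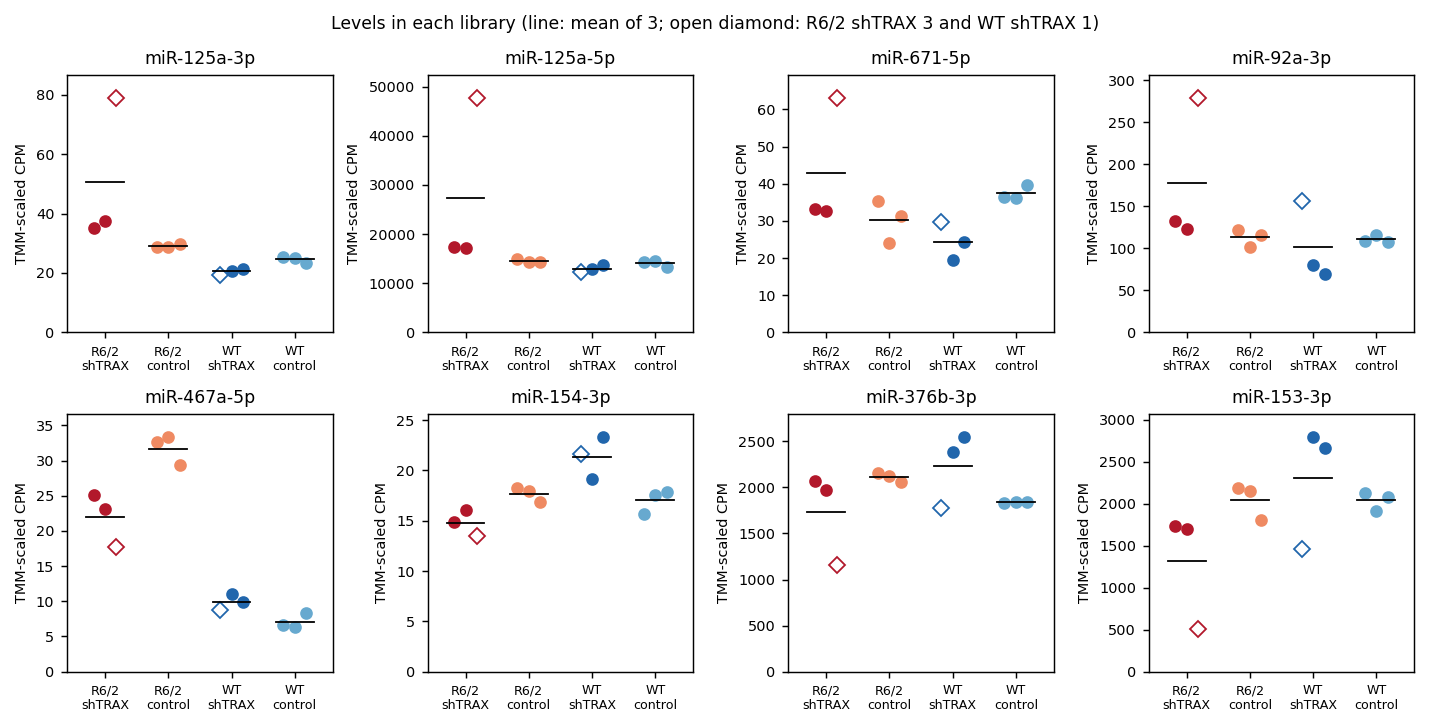
TMM-scaled CPM of 8 miRNAs in each library of the 4 groups, with shTRAX left of control in each genotype and the mean of 3 libraries as a line. Open diamonds are R6/2 shTRAX 3 and WT shTRAX 1. miR-125a-3p lies above its controls in R6/2 and below them in WT, miR-467a-5p and miR-154-3p the other way round, and for miR-92a-3p, miR-376b-3p and miR-153-3p both diamonds lie apart from the other libraries of their groups.

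miR-92a-3p, a member of the growth-promoting miR-17-92 and miR-106a-363 clusters, had 133, 123 and 279 CPM in R6/2 shTRAX against 122, 102 and 116 CPM in R6/2 control. In WT it had 156, 79.8 and 69.1 CPM with shTRAX against 109, 116 and 108 CPM with control. WT shTRAX replicate 1 lay above the WT controls and the other WT shTRAX libraries below them. The difference was 0.77 over 12 libraries (edgeR adjusted p = 0.477) and 0.80 ± 0.14 over 10 (edgeR adjusted p = 0.0291). With the GC offset over 10 libraries miR-92a-3p stood at 0.61 (edgeR adjusted p = 0.0517). All 5 tested miRNAs with its seed AUUGCAC were above 0 over 10 libraries, and miR-92b-3p was also called. Of the 18 tested members of the miR-17-92 list 11 were above 0 over 10 libraries with a median of 0.20, beside 380 of 696 and 0.04 over all. miR-92a-3p was the 1 call among the 18, beside 51 of 696 (7.33%) over all.

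miR-671-5p, whose hairpin lies in an exon of Chpf2 at chr5:24592114-24592211, is known for cutting the circular RNA Cdr1as. It had 33.2, 32.8 and 63.1 CPM in R6/2 shTRAX against 35.3, 24.0 and 31.4 CPM in R6/2 control, and 29.7, 19.5 and 24.2 CPM in WT shTRAX against 36.5, 36.1 and 39.8 CPM in WT control. The R6/2 groups overlapped, and all WT shTRAX libraries lay below the WT controls. No positive difference had a smaller p over 12 libraries (1.12 ± 0.37, edgeR adjusted p = 0.469). Over 10 libraries it passed at 0.96 ± 0.20 (edgeR adjusted p = 0.0294), and with the GC offset it stood at 0.62 (edgeR adjusted p = 0.163).

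miR-1198-5p, from an intron of Gripap1, had 97.9, 101 and 191 CPM in R6/2 shTRAX against 92.8, 82.3 and 84.1 CPM in R6/2 control. It had 140, 86.8 and 93.2 CPM in WT shTRAX against 122, 142 and 125 CPM in WT control. All R6/2 shTRAX libraries lay above control, and the WT shTRAX libraries apart from replicate 1 lay below control. The difference over 10 libraries was 0.79 ± 0.12 (edgeR adjusted p = 0.0291), and with the GC offset 0.63 (edgeR adjusted p = 0.041).

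miR-125b-1-3p, the passenger strand of miR-125b, had 29.1, 29.5 and 45.3 CPM in R6/2 shTRAX against 27.3, 21.6 and 24.7 CPM in R6/2 control. It had 47.1, 22.7 and 25.3 CPM in WT shTRAX against 32.7, 40.9 and 32.8 CPM in WT control. WT shTRAX replicate 1 lay above the WT controls and the other WT shTRAX libraries below them. The difference was 0.66 over 12 libraries and 0.87 ± 0.17 over 10 (edgeR adjusted p = 0.0291), or 0.66 with the GC offset (edgeR adjusted p = 0.0556).

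The miR-181 family, known mainly from immune cells and neurons, had 6 of 10 members above 0 over 12 libraries with a median of 0.12 and 0 calls. Over 10 libraries 8 of 10 were above 0 with a median of 0.30, and 3 were called higher (miR-181a-5p, miR-181a-2-3p and miR-181c-3p), beside 380 of 696 above 0 and 30 of 696 called higher (4.31%) over all miRNAs. miR-181c-3p had 73.8, 71.3 and 80.2 CPM in R6/2 shTRAX against 59.9, 54.1 and 60.2 CPM in R6/2 control. It had 51.0, 52.1 and 50.8 CPM in WT shTRAX against 51.5, 54.3 and 53.7 CPM in WT control. In this case R6/2 shTRAX replicate 3 lay near its group, the R6/2 groups did not overlap and the WT groups nearly coincided. The difference was 0.42 both over 12 libraries (± 0.15, edgeR adjusted p = 0.469) and over 10 (± 0.10, edgeR adjusted p = 0.0429), and 0.21 with the GC offset (edgeR adjusted p = 0.295).

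Other positive differences with the smallest p over 12 libraries belonged to scarce miRNAs. miR-1249-3p (2.08 ± 0.70, 1.10 to 8.91 CPM across libraries) passed over 10 libraries at 1.43 (edgeR adjusted p = 0.0497). miR-7047-3p, miR-3083-5p, miR-193a-5p, miR-1188-5p and miR-3058-5p stood at 1.31, 1.23, 0.88, 1.82 and 1.90 over 12 libraries and did not pass over 10. miR-5121 stood at 2.14 ± 0.81 and rested on 16.8 CPM in R6/2 shTRAX replicate 3, against 2.68 to 5.47 CPM in the other libraries. Its hairpin overlaps exons of Snord33 and Rpl13a, so its reads are uncertain.

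Among negative differences, 10 of the 21 calls over 10 libraries came from the Dlk1-Dio3 region of chromosome 12, a large miRNA cluster expressed from the maternal allele and enriched in brain. They were miR-136-3p, miR-136-5p, miR-337-3p, miR-376a-3p, miR-376a-5p, miR-376b-3p, miR-376b-5p, miR-433-5p, miR-539-5p and miR-544-3p, while miR-485-5p was called higher. The region holds 92 of the 696 miRNAs tested, so 10 of 92 were called lower beside 21 of 696 (3.02%) over all. Other members had positive values. Over 12 libraries 43 of 92 members were above 0 with a median of -0.03, and over 10 libraries 42 of 92 with a median of -0.03, or -0.14 with the GC offset. Of the lower calls, miR-337-3p, miR-376a-3p, miR-376a-5p and miR-433-5p were also called with the GC offset. The other lower calls were not (edgeR adjusted p = 0.0517 to 0.216). The calls are not separate loci, since miR-136, miR-376a and miR-376b each gave both arms of a hairpin.

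miR-376b-3p, at chr12:109723458-109723539, had 2065, 1973 and 1153 CPM in R6/2 shTRAX against 2158, 2127 and 2058 CPM in R6/2 control. In WT it had 1774, 2387 and 2544 CPM with shTRAX against 1836, 1845 and 1839 CPM with control. The R6/2 groups overlapped, and 2 of 3 WT shTRAX libraries lay well above the tight WT controls. The difference was -0.57 over 12 libraries (edgeR adjusted p = 0.469) and -0.44 ± 0.07 over 10 (edgeR adjusted p = 0.0291), with -0.02 in R6/2 and 0.41 in WT. With the GC offset over 10 libraries it was -0.34 (edgeR adjusted p = 0.0517).

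miR-376a-3p, from a neighbouring hairpin, had 786, 789 and 266 CPM in R6/2 shTRAX against 893, 872 and 808 CPM in R6/2 control. It had 711, 998 and 955 CPM in WT shTRAX against 725, 706 and 762 CPM in WT control. All R6/2 shTRAX libraries lay below their controls, and the WT groups overlapped through replicate 1. The difference over 10 libraries was -0.49 ± 0.09 (edgeR adjusted p = 0.0291), and -0.47 with the GC offset (edgeR adjusted p = 0.041).

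miR-433-5p had 9.20, 9.24 and 4.88 CPM in R6/2 shTRAX against 10.9, 10.8 and 9.98 CPM in R6/2 control, and 6.63, 13.2 and 11.9 CPM in WT shTRAX against 7.09, 6.74 and 8.11 CPM in WT control. miR-539-5p, with 2.09 to 3.48 CPM in R6/2 shTRAX against 3.02 to 4.38 CPM in R6/2 control, had 2.11 to 3.53 CPM in WT shTRAX against 1.73 to 1.95 CPM in WT control. WT shTRAX lay above WT control for both, apart from replicate 1 of miR-433-5p, and in R6/2 shTRAX lay below control for miR-433-5p and overlapped it for miR-539-5p. The differences over 10 libraries were -0.92 ± 0.17 and -1.17 ± 0.28 (edgeR adjusted p = 0.0291 and 0.0429).

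miR-154-3p, from an intron of Mirg, had 14.9, 16.1 and 13.5 CPM in R6/2 shTRAX against 18.3, 18 and 16.9 CPM in R6/2 control. It had 21.6, 19.2 and 23.3 CPM in WT shTRAX against 15.7, 17.6 and 17.9 CPM in WT control. No group overlapped its control, and neither of the 2 libraries that stand apart changed that. The difference of -0.58 ± 0.19 did not pass over 12 libraries (edgeR adjusted p = 0.469) or over 10 (-0.45, edgeR adjusted p = 0.0995).

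The families of the Sfmbt2 intron, rodent miRNAs known from placenta and embryonic stem cells, had 7 of 52 members above 0 over 12 libraries with a median of -0.45, and 11 stood at an unadjusted p under 0.05, all negative. Over all miRNAs 334 of 689 were above 0, with a median of -0.02, and 26 of 689 were negative at an unadjusted p under 0.05 (3.77%). Over 10 libraries 22 of 55 were above 0 with a median of -0.14, and miR-467a-5p and miR-467b-5p were called lower, beside 380 of 696 above 0 and 3.02% called lower over all. Many of these miRNAs differ by few letters, so that reads can be shared. Equal values in every library were found for miR-297a-3p, miR-297b-3p and miR-297c-3p. The same held for miR-466b-3p, miR-466c-3p and miR-466p-3p. It also held for the pairs miR-466b-5p and miR-466o-5p, miR-466d-5p and miR-466n-5p, miR-467a-3p and miR-467d-3p, and miR-669a-5p and miR-669p-5p. Others, such as miR-669a-3p and miR-669o-3p, had nearly equal values. The member counts above, including the 11, thus hold some results more than once. miR-467a-5p and miR-467b-5p had nearly equal counts in every library and cannot be read as separate results.

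miR-467a-5p had 25.1, 23.1 and 17.7 CPM in R6/2 shTRAX against 32.6, 33.3 and 29.3 CPM in R6/2 control. It had 8.74, 11 and 9.90 CPM in WT shTRAX against 6.69, 6.35 and 8.30 CPM in WT control. All shTRAX libraries lay below control in R6/2 and above it in WT, and both R6/2 groups lay above both WT groups. The difference had the smallest p of the 689 over 12 libraries (-1.0 ± 0.25, 95% interval -1.55 to -0.46, edgeR adjusted p = 0.455). Over 10 libraries it was -0.90 ± 0.18 (edgeR adjusted p = 0.0291).

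Other miRNAs of the Sfmbt2 intron differed in level and in sign. miR-467e-5p was more abundant, at 41.9 to 80.4 CPM in R6/2 shTRAX against 95.3 to 107 CPM in R6/2 control and 30.8 to 37.3 CPM in WT shTRAX against 32.2 to 35.5 CPM in WT control, with a difference of -0.65 over 12 libraries and -0.33 over 10 (edgeR adjusted p = 0.2). The scarce miR-669l-5p had a positive difference of 0.81 over 12 libraries and 1.44 over 10 (edgeR adjusted p = 0.226). miR-467d-5p had 17.6, 13.7 and 11 CPM in R6/2 shTRAX against 22.7, 19.7 and 20.6 CPM in R6/2 control, with overlapping WT groups (7.0 to 8.55 CPM with shTRAX against 6.15 to 7.04 CPM with control). miR-466c-5p had 0.388 to 1.04 CPM in R6/2 shTRAX against 1.69 to 2.12 CPM in R6/2 control, and 0.447 to 0.970 CPM in WT shTRAX against 0.314 to 0.403 CPM in WT control. Neither passed over 10 libraries (-0.60, edgeR adjusted p = 0.107, and -2.30, edgeR adjusted p = 0.0507), and the counts behind miR-466c-5p ran from 5 to 29.

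Other negative differences with the smallest p over 12 libraries were those of miR-16-2-3p (-1.36), miR-130a-5p (-1.35), miR-145b (-1.75) and miR-216a-5p (-1.03 ± 0.33), and over 10 libraries their edgeR adjusted p was 0.225, 0.254, 0.187 and 0.0819. miR-216a-5p, a miRNA best known from pancreas, had 3.26, 3.68 and 3.18 CPM in R6/2 shTRAX against 2.94, 3.73 and 5.31 CPM in R6/2 control. It had 5.23, 7.69 and 7.07 CPM in WT shTRAX against 3.98, 3.86 and 3.71 CPM in WT control. The groups overlapped in R6/2, and in WT all shTRAX libraries lay above control. miR-31-3p, from a hairpin on chromosome 4, was called lower over 10 libraries (-0.69 ± 0.14, edgeR adjusted p = 0.0291), with 13.6, 11.7 and 5.58 CPM in R6/2 shTRAX against 15.4 to 15.8 CPM in R6/2 control and 7.78, 13.4 and 14.1 CPM in WT shTRAX against 9.97 to 10.4 CPM in WT control.

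Among 33 tested neuron-enriched miRNAs 19 were above 0 over 12 libraries with a median of 0.02. Over 10 libraries 20 were above 0 with a median of 0.06, and miR-383-5p was called higher and miR-139-5p, miR-153-3p and miR-218-5p lower. These are 4 of 33 beside 51 of 696 called over all (7.33%). miR-153-3p, known to repress alpha-synuclein, had 1736, 1694 and 506 CPM in R6/2 shTRAX against 2192, 2145 and 1810 CPM in R6/2 control. It had 1458, 2790 and 2657 CPM in WT shTRAX against 2123, 1918 and 2080 CPM in WT control. All R6/2 shTRAX libraries lay below their controls, while WT shTRAX replicate 1 lay below the WT controls and the other 2 above. The difference was -0.82 over 12 libraries (edgeR adjusted p = 0.479) and -0.62 ± 0.12 over 10 (edgeR adjusted p = 0.0291).

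miR-139-5p, from an intron of Pde2a, a phosphodiesterase gene, had 1704, 1565 and 1251 CPM in R6/2 shTRAX against 2161, 2147 and 1938 CPM in R6/2 control. It had 2240, 2999 and 3408 CPM in WT shTRAX against 2862, 2546 and 2852 CPM in WT control. The R6/2 groups did not overlap and the WT groups did. The difference was -0.53 over 12 libraries (edgeR adjusted p = 0.469) and -0.51 ± 0.11 over 10 (edgeR adjusted p = 0.0294). Its GC content of 54.5% was the highest of the 19 lower calls with a sequence, and the GC offset gave -0.67 (edgeR adjusted p = 0.041).

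The miR-29 family, which represses collagen and DNA methyltransferase transcripts and is high in mature neurons, had 0 of 7 members above 0 in either fit. Its medians were -0.32 over 12 libraries and -0.22 over 10. Over all miRNAs 334 of 689 and 380 of 696 were above 0. Called lower over 10 libraries was miR-29b-3p, 1 of 7 beside 21 of 696 (3.02%) over all. miR-29b-3p had 21916, 20106 and 10706 CPM in R6/2 shTRAX against 22241, 23660 and 21572 CPM in R6/2 control. It had 14316, 21459 and 20753 CPM in WT shTRAX against 17036, 16218 and 16566 CPM in WT control. Groups overlapped in both genotypes through 1 library each. The difference over 10 libraries was -0.39 ± 0.08 (edgeR adjusted p = 0.0294), and with the GC offset -0.26 (edgeR adjusted p = 0.0571). miR-29a-3p, with the same seed, had a difference of -0.04 over 12 libraries (95% interval -0.31 to 0.24), which turned to 0.22 with the GC offset and to 0.05 without WT shTRAX replicate 3.

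Activity-induced miRNAs, which follow neuronal firing, had 8 of 11 members above 0 over 12 libraries with a median of 0.11, beside 334 of 689 and -0.02 over all. Of the 11 members miR-181c-3p was the 1 called higher over 10 libraries, beside 30 of 696 (4.31%) over all. miR-132-3p, the best known of them, had 1258, 1185 and 1654 CPM in R6/2 shTRAX against 1534, 1280 and 1290 CPM in R6/2 control. It had 4898, 3038 and 3475 CPM in WT shTRAX against 4357, 4939 and 4150 CPM in WT control. Groups overlapped in both genotypes, and all R6/2 libraries lay below all WT libraries. Its difference was 0.23 ± 0.26 over 12 libraries and 0.35 ± 0.13 over 10 (edgeR adjusted p = 0.141).

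Complete separation of shTRAX from control in both genotypes was counted with all libraries and without the 2 that stand apart. Over 12 libraries 8 of 689 miRNAs lay above control in R6/2 and below it in WT (1.16%), and 8 the other way round (1.16%). The first were let-7b-5p, let-7c-5p, miR-30c-2-3p, miR-30d-5p, miR-99b-5p, miR-125a-3p, miR-191-5p and miR-664-5p, and the second miR-29a-5p, miR-136-5p, miR-154-3p, miR-380-3p, miR-381-3p, miR-466c-5p, miR-467a-5p and miR-467b-5p. In the same direction in both genotypes were 11 above control (1.60%) and 4 below it (0.581%). Over 10 libraries, with 2 shTRAX libraries in each genotype, 21 of the same 689 lay above control in R6/2 and below it in WT (3.05%) and 32 the other way round (4.64%). In the same direction were 36 above control (5.22%) and 39 below it (5.66%). These sets were chosen after their values were seen.

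A pair of miRNAs of the Dlk1-Dio3 region, named for a higher level with shTRAX in both genotypes, serves as a contrast. miR-412-5p had 60.2, 68.6 and 110 CPM in R6/2 shTRAX against 35, 28.6 and 32.2 CPM in R6/2 control, and 101, 75.8 and 84.3 CPM in WT shTRAX against 49.0, 44.9 and 49.6 CPM in WT control. miR-496a-3p had 239, 239 and 131 CPM in R6/2 shTRAX against 113, 89.4 and 85.7 CPM in R6/2 control, and 176, 206 and 226 CPM in WT shTRAX against 87.9, 84.0 and 92.8 CPM in WT control. Every shTRAX library lay above its controls in both genotypes. The effects of miR-412-5p were 1.32 ± 0.21 in R6/2 and 0.86 ± 0.21 in WT, a difference of 0.45 (95% interval -0.20 to 1.11). Those of miR-496a-3p were 1.08 ± 0.22 in R6/2 and 1.20 ± 0.22 in WT, a difference of -0.12 (95% interval -0.80 to 0.56).

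miR-409-3p of the same region had 317, 352 and 526 CPM in R6/2 shTRAX against 220, 197 and 237 CPM in R6/2 control. It had 343, 361 and 425 CPM in WT shTRAX against 321, 314 and 307 CPM in WT control. Both genotypes had shTRAX above control, by 0.87 ± 0.18 in R6/2 and 0.26 ± 0.18 in WT. The difference of 0.61 (95% interval 0.05 to 1.17) did not pass (edgeR adjusted p = 0.469), and was 0.34 over 10 libraries (edgeR adjusted p = 0.173).

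The 5 most abundant miRNAs had differences of -0.25 to 0.42 over 12 libraries, and none passed. miR-125b-5p stood at 0.42 (95% interval -0.10 to 0.95), with 69361, 72081 and 118075 CPM in R6/2 shTRAX against 63372 to 66342 CPM in R6/2 control, groups that did not overlap, and 56975 to 63093 CPM in WT shTRAX against 57380 to 64400 CPM in WT control. miR-9-5p, a neuronal lineage miRNA, ranged from 99476 to 135053 CPM in R6/2 shTRAX against 132950 to 151647 CPM in R6/2 control, and from 108271 to 139059 CPM in WT shTRAX against 121007 to 124786 CPM in WT control. Its difference was -0.25 (95% interval -0.66 to 0.15), and 0.14 with the GC offset. miR-128-3p, a miRNA that dampens neuronal excitability, had a difference of 0.11 (95% interval -0.27 to 0.49), and -0.07 over 10 libraries. For miR-9-5p and miR-128-3p the edgeR adjusted p was 0.483 and 0.726, and the intervals still hold changes of up to 0.66 and 0.49 log2 units.

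Passenger strands were read as the less abundant arm of each hairpin. Of 215 hairpins with both arms tested, the difference of the minor arm was above that of the major arm in 97 over 12 libraries and in 85 over 10, with medians of -0.10 and -0.09. The median log2 ratio of minor to major arm was -3.49, -3.59 and -3.72 in R6/2 shTRAX against -3.57, -3.53 and -3.60 in R6/2 control. In WT it was -3.51, -3.57 and -3.49 with shTRAX against -3.51, -3.46 and -3.56 with control. The groups overlapped in both genotypes.

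**Figure D4:**
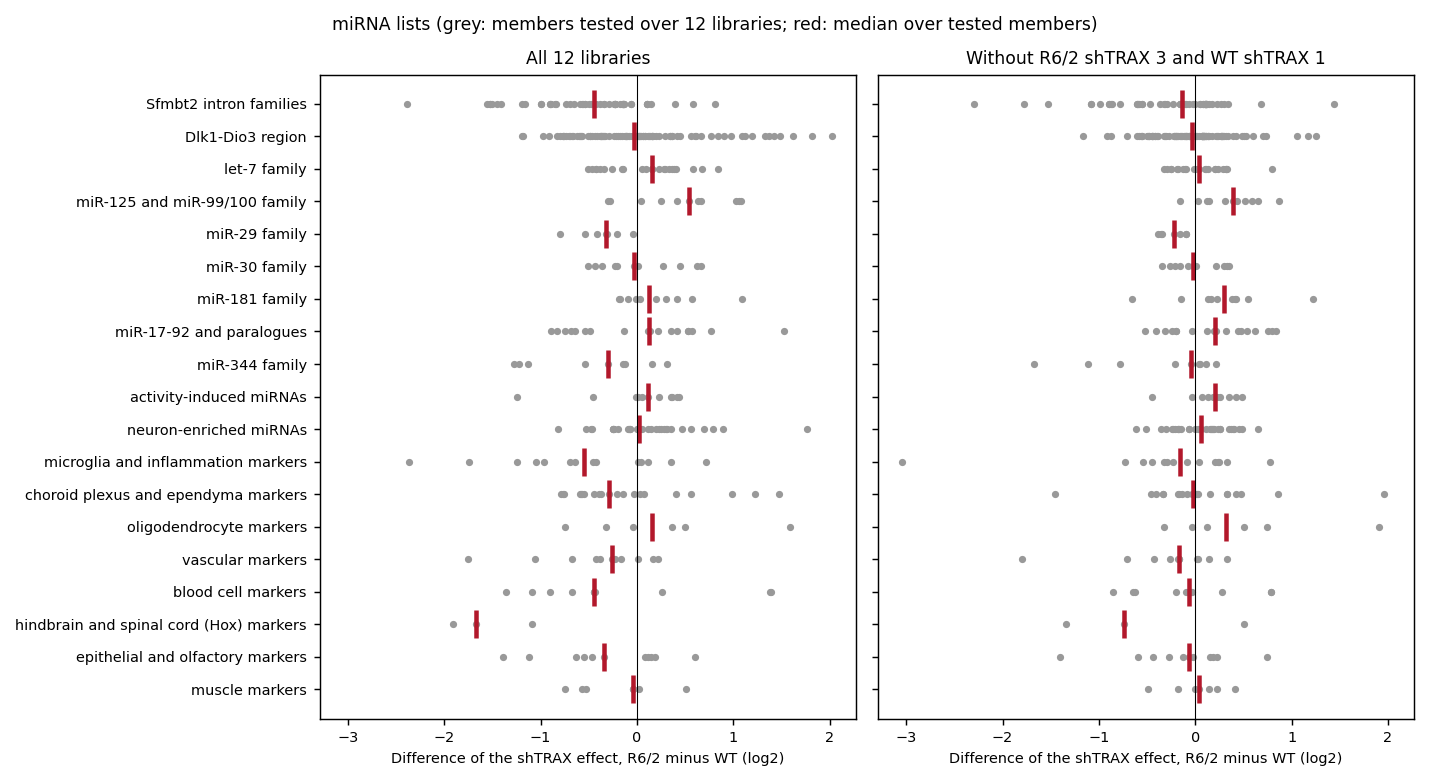
Difference of the shTRAX effect, R6/2 minus WT (log2), for members of 19 miRNA lists, over all 12 libraries (left) and without R6/2 shTRAX 3 and WT shTRAX 1 (right). Grey points are members tested over 12 libraries and red bars the medians over tested members. The miR-125 and miR-99/100 list has medians of 0.54 and 0.39, and the Sfmbt2 intron families -0.45 and -0.14.

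Other families gave 0 or 1 call, beside 51 of 696 (7.33%) over all miRNAs over 10 libraries. Over 12 libraries 334 of 689 were above 0, with a median of -0.02. The miR-30 family had 5 of 11 members above 0 over 12 libraries with a median of -0.03, and miR-30d-5p was called higher over 10. The miR-344 family had 2 of 9 above 0 with a median of -0.30 over 12 libraries and 0 calls in either fit. The miR-17-92 list had 10 of 18 above 0 with a median of 0.12 over 12 libraries.

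Markers of other cells varied between libraries. Microglial and inflammatory miRNAs summed to 6802 to 9749 CPM in R6/2 shTRAX against 8083 to 17982 CPM in R6/2 control. In WT they summed to 10024 to 33002 CPM with shTRAX, the highest being replicate 1, against 14556 to 27625 CPM with control. miR-142a-3p, a blood-lineage miRNA, had 498, 683 and 232 CPM in R6/2 shTRAX against 827, 1408 and 2450 CPM in R6/2 control, and 962 to 4706 CPM in WT shTRAX against 1253 to 3820 CPM in WT control. Its R6/2 groups did not overlap, yet its difference of -1.74 ± 0.88 did not pass (edgeR adjusted p = 0.469), and over 10 libraries it was -0.54. The 14 tested microglial markers had a median shTRAX effect of -0.74 in R6/2 and -0.06 in WT over 12 libraries. Over 10 libraries these medians were -0.75 in R6/2 and -0.79 in WT. The difference was above 0 for 5 of the 14 with a median of -0.55 over 12 libraries, and for 6 with a median of -0.16 over 10. All miRNAs together had 334 of 689 above 0 (median -0.02) and 380 of 696 (median 0.04).

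Choroid plexus and ependyma markers, such as miR-204-5p and miR-448-3p, summed to 5753, 6343 and 6855 CPM in R6/2 shTRAX against 2294, 9316 and 2514 CPM in R6/2 control. They summed to 6157, 3936 and 2313 CPM in WT shTRAX against 2590, 2320 and 2695 CPM in WT control. R6/2 control replicate 2 and WT shTRAX replicate 1 were the high libraries of their groups. Of 21 members 7 were above 0 over 12 libraries with a median of -0.29, and 10 over 10 libraries with a median of -0.02. The shares over all miRNAs were 334 of 689 and 380 of 696.

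Hox cluster markers of hindbrain and spinal cord summed to 6.38 to 14.2 CPM in R6/2 shTRAX against 9.54 to 17.1 CPM in R6/2 control, and to 6.88 to 83.2 CPM in WT shTRAX, the highest being replicate 1, against 14.1 to 37.4 CPM in WT control. Of 11 members 4 were at 0 in every library, and the 3 tested were all below 0 over 12 libraries. Blood markers had 3 of 10 above 0 (median -0.45), vascular markers 3 of 11 (-0.26), epithelial markers 5 of 11 (-0.34, with 3 of 20 members at 0 in every library), muscle markers 2 of 7 (-0.04) and oligodendrocyte markers 3 of 6 (0.16). These counts over 12 libraries stand beside 334 of 689 above 0 (median -0.02) over all miRNAs. Over 10 libraries 1 miRNA of all these marker lists was called, miR-16-5p, which is also expressed in most cells, beside 51 of 696 (7.33%) over all. The part of any other cell type in these differences was not tested.

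The difference of the shTRAX effect moved with the GC content of the mature sequence, known for 564 of the 689 miRNAs (81.9%). Across these the Spearman rho was 0.55 over 12 libraries, and 0.35 over 10 across 569 miRNAs. Under 40% GC the median difference was -0.45 over 12 libraries (104 miRNAs) and -0.20 over 10 (105 miRNAs), and at 55% GC or more it was 0.61 (135 miRNAs) and 0.27 (136 miRNAs). The R6/2 effect had a rho with GC content of 0.55 over 12 libraries and 0.26 over 10, and the WT effect -0.24 and -0.22. The 30 miRNAs called higher had a median GC content of 54.5% (25 with a sequence, 38.5% to 69.6%) and the 21 called lower 40.9% (19 with a sequence, 33.3% to 54.5%), beside 47.8% over all tested.

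The same trend stood in single libraries. The rho of a library's deviation from the mean of all 12 with GC content was -0.17, -0.05 and 0.61 in R6/2 shTRAX against -0.33, -0.36 and -0.24 in R6/2 control. It was -0.01, -0.34 and -0.14 in WT shTRAX against -0.03, 0.09 and -0.16 in WT control. R6/2 shTRAX replicate 3 was the highest of all libraries, and every R6/2 shTRAX library was above every R6/2 control. The part of GC-dependent recovery in the differences was not tested beyond the GC offset. Of the 51 calls 14 were also among the 17 called with the GC offset. The 14 include miR-378a-3p, miR-383-5p, miR-467a-5p and miR-467b-5p, which have no sequence here and which the offset left unadjusted.

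**Figure D5:**
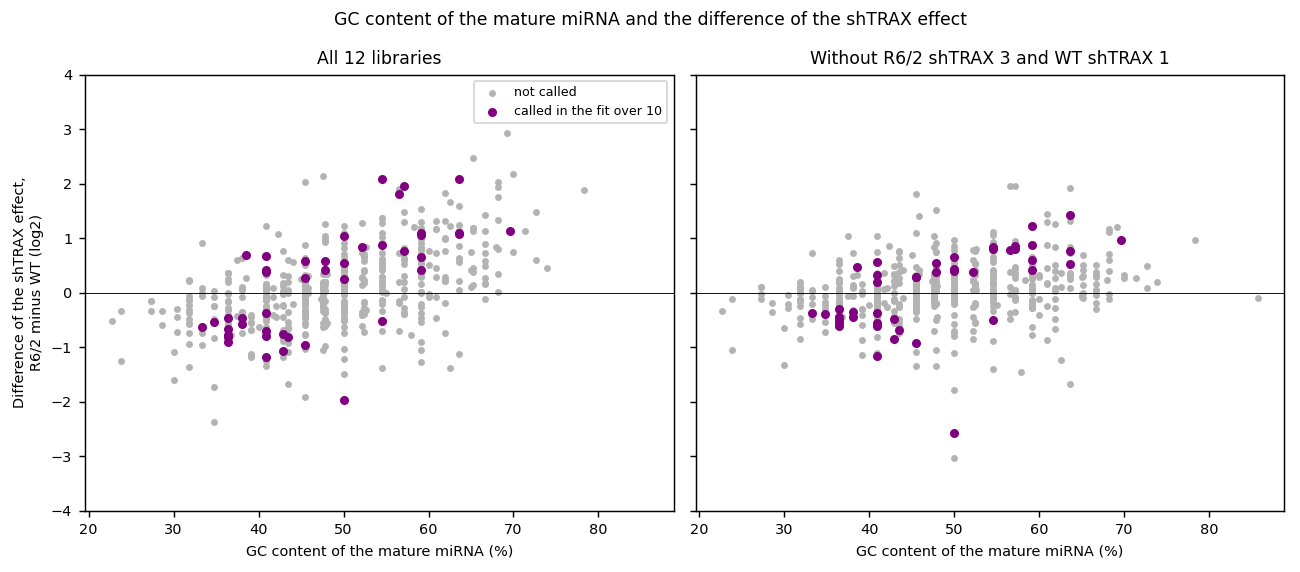
Difference of the shTRAX effect, R6/2 minus WT (log2), against the GC content of the mature miRNA, over all 12 libraries (left, Spearman rho 0.55) and without R6/2 shTRAX 3 and WT shTRAX 1 (right, rho 0.35). Purple points passed an adjusted p of 0.05 over 10 libraries. Points rise to the right in both panels.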

How the data were processed

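The authors deposited raw read counts per mature miRNA and precursor in a table for each genotype, per the file headers. The submitters' processing notes name bcl2fastq 2.20, Trimmomatic and build GRCm38. The aligner is not given in the sources used here, nor are the counter and the handling of molecular identifiers. Both tables were joined to 2059 rows, and for each of 1915 mature names the precursor row with the highest mean was kept (81 names had several). Only the authors' count columns were used.

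The contrast was tested in 1 fit of 4 group means by the quasi-likelihood test of edgeR 4.0.16 under R 4.3.3. Libraries were scaled by TMM, low miRNAs removed by filterByExpr (minimum count 10), and p-values adjusted by Benjamini-Hochberg at a threshold of 0.05. CPM are TMM-scaled, errors of differences are SE, and intervals are 95% intervals from the same fit. Alternatives covered scaling, DESeq2 1.42.0, limma 3.58.1 with library weights, filters, precursor rows, a replicate block, a loess GC offset (span 0.5) and leaving out libraries. miRNAs without a sequence were left unadjusted by the GC offset. Alternatives around the fit over 10 libraries were added after the data were seen.

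Named miRNAs are up to 10 higher and 10 lower by smallest p over 12 libraries, up to 8 higher and 8 lower among calls over 10, the member of each of 19 lists with the smallest p, and the 5 most abundant. Others were picked after their values were seen, from calls over 10 libraries, groups without overlap or list members. The contrast, the 2 libraries left out, the lists and the naming rule were chosen with earlier results of these data known. Positions and host genes come from RefSeq and GENCODE on GRCm38.

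On simulated counts for this contrast over 12 libraries (683 miRNAs run), edgeR called 18 of 49 differences of 1 (36.7%), 13 of 50 of -1 (26%), 41 of 50 of 2 (82%), 42 of 48 of -2 (87.5%) and 4 of 486 with none (0.823%). The simulation used a common dispersion trend for all libraries. It held no library that stands apart and no deviation with GC content, so its rates need not hold for the real counts.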

Additional observations from a re-analysis of the deposited data

Results flagged for a closer look

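The effect of shTRAX differed between the genotypes for miR-467a-5p and miR-467b-5p in DESeq2's test of the difference over 12 libraries, with an adjusted p of 0.0351 for each, while edgeR gave an adjusted p of 0.455. Their reads are nearly shared, so they count as 1 result. All 3 shTRAX libraries lay below control in R6/2 and above it in WT.

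In edgeR's fit without R6/2 shTRAX replicate 3 and WT shTRAX replicate 1, 51 miRNAs were called for this difference, against 0 with them. These libraries were chosen from these data, and the calls depend on that choice. The 51 calls became 17 with the GC offset and 0 with the replicate block.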

How the results depend on the processing

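Over 12 libraries edgeR's count of 0 calls held with each scaling, filter, GC offset and single library left out (0 to 0), and became 2 with DESeq2, 2 with library weights and 51 without both libraries. The 61 miRNAs at an unadjusted p under 0.05 became 152 with library weights, 106 with no filter, 40 with a minimum count of 50, 35 with GC offset and block together, 168 without both libraries, and 30 to 146 without single libraries. With the replicate block they were 46 and the calls 0. Deviations of same-numbered libraries correlated between -0.317 and 0.279, and those of differently numbered libraries between -0.407 and 0.423. With 3 libraries a group these values cannot decide whether the numbers pair the samples. Over 10 libraries the 51 calls became 17 with the GC offset, 0 with the replicate block, 0 with both, and 0 to 47 without single libraries. The cause of these shifts was not tested.

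Directions of the 49 named miRNAs held under every alternative that tested them, apart from 3 abundant ones near 0. miR-9-5p turned to 0.14 with the GC offset and 0.13 with the block added. miR-128-3p turned to -0.08 with library weights and -0.07 without both libraries, and single libraries left out gave -0.07 to 0.21. miR-29a-3p turned to 0.02 with a minimum count of 50 and 0.22 with the GC offset, with or without the block, and gave -0.16 to 0.05 without single libraries.

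With 3 libraries a group and a median SE of 0.37, differences under 1 log2 unit were mostly not detectable.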
